A study of Mus musculus with 3 samples.

Results

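Neutrophils carry 3 kinds of granule that are filled one after another while the cell matures in the bone marrow. Primary granules are made first, secondary or specific granules follow, and tertiary or gelatinase granules come last. The mRNAs of secondary granule proteins are made mainly in maturing precursors, and their levels are low in mature circulating neutrophils. The 7 genes described here, Camp, Ngp, Ltf, Lcn2, Mmp8, Mmp9 and Fcnb, encode proteins of the secondary and tertiary granules or of the same cells at that stage. They were chosen by name: all non-control probes whose gene name in the scanner files was one of these symbols were taken, which gave 9 probes, 2 each for Ltf and Mmp9 and 1 for each of the others, of 41169 probes for 27665 genes or unnamed targets.

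RNA came from muscle of male mice, 6 weeks old by the labels, after 14 days. The nonswimming group had normal food and did not swim, the swimming group had normal food and swam, and the Chlorella group swam and had food with 0.5% powder of Chlorella, a unicellular green alga. RNA of 10 mice was pooled in each group and put on 1 single-colour array, so there was no replicate, no test between groups was possible, and single mice cannot be seen. The labels name neither the strain nor which muscle was taken. The arrays shared 1 slide and 1 scan, and no probe was saturated. Between 57.0% and 60.4% of probes were well above background. Of 8 skeletal muscle genes, such as Ckm, Acta1 and Myh4, all were well above background on every array, and Myh4 had signals of 202270, 197391 and 201559 on the nonswimming, swimming and Chlorella array.

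Signals below are the scanner software's processed signal in intensity units. A log2 ratio is the difference of log2 signals after each array was set against its own 75th percentile, which was 286 on the nonswimming, 295 on the swimming and 238 on the Chlorella array. The error beside a ratio is the software's error of both spots and holds no difference between mice. A gene was counted as higher or lower at 2-fold or more when its brightest probe was well above background on both arrays. Where it was well above background on 1 array only, the ratio is a bound, taken against the lowest signal well above background on the dim array (6.45, 5.78 and 6.26 on the nonswimming, swimming and Chlorella array) or the dim probe's own signal if that was higher. The 3 comparisons share arrays, so each gene's high swimming signal enters the first and the second with opposite sign. In bulk RNA, fewer cells of a type and less RNA per cell cannot be told apart.

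All 7 genes were at least 2-fold higher in swimming than in nonswimming mice on normal food, by 3.16-fold to 22.8-fold, where 5.17% of the 15661 genes measured on both arrays were higher and 1.07% lower. With bounds counted these shares of all genes were 6.98% and 2.43% of 17283. In swimming mice, 5 of the 5 granule genes measured on both arrays were lower with Chlorella than with normal food, against 4.90% of 15503 genes lower and 1.37% higher. Mmp8 and Fcnb were lower by a bound, which makes 7 of 7, against 6.91% lower and 2.25% higher of 17130 genes. The fall was 185-fold, 182-fold and 175-fold for Camp, Ngp and Ltf, but 7.22-fold for Lcn2 and 7.76-fold for Mmp9.

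Chlorella swimming against nonswimming gave 4 of 5 measured genes lower, where 1.49% of 15331 genes were lower and 2.09% higher. Mmp8 was also lower by a bound, so that 5 of 7 were lower, against 2.73% lower and 3.06% higher of 16656 genes. Lcn2 was the exception in sign, with a log2 ratio of 0.83 ± 0.28. The medians over the granule genes measured on both arrays were 3.68, -7.45 and -3.02 in the order of these comparisons, and those over all genes -0.04, 0.08 and 0.04. Over 7 genes with bounds included, the median was -4.80 for Chlorella against normal food, which is the bound of Mmp8 and so an upper limit. For Chlorella swimming against nonswimming it was -1.30. That is an upper limit too, since the bounds of Mmp8 (-1.25) and Fcnb (-0.24) lie above it.

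**Figure D1:**
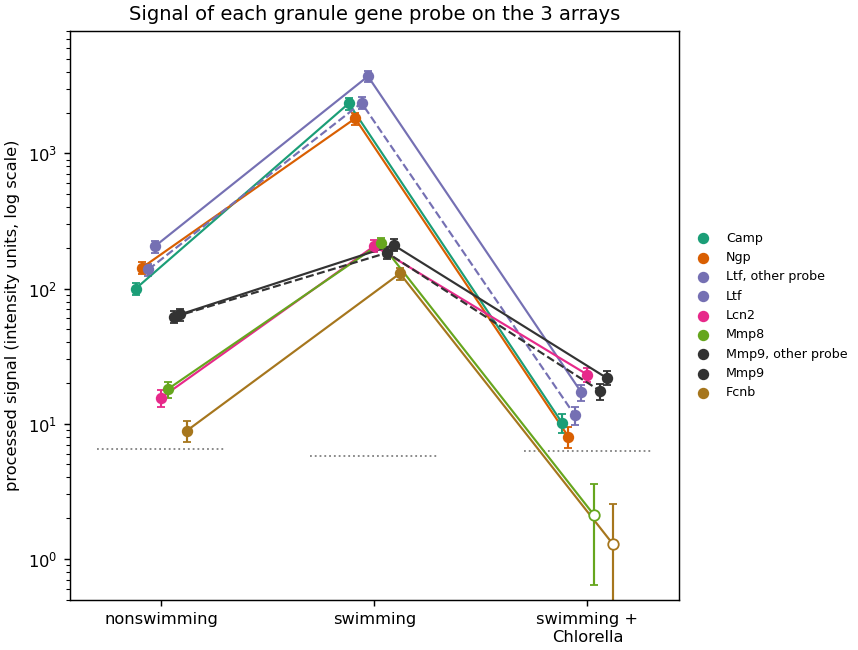
Processed signal (intensity units, log axis) of the 9 probes on the nonswimming, swimming and Chlorella arrays, with the scanner software's error as bars; dashed lines are the second probes of Ltf and Mmp9, open points are not well above background, and dotted lines mark each array's lowest signal well above background. Every probe peaked on the swimming array, where Camp stood at 2342, and on the Chlorella array Mmp8 and Fcnb lay under the dotted line at 2.12 and 1.28.

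Camp, Ngp and Ltf had the largest falls of the 5 genes measured on both arrays. The probes of Camp and Ltf lie 1194 kb apart on chromosome 9, with that of Ngp between them. Camp encodes cathelicidin, the precursor of an antimicrobial peptide stored in secondary granules, and its probe lies at 109544107 to 109544166 on chromosome 9 in the scanner files' own coordinates, for which no build is named there. Its signal was 99.6 on the nonswimming, 2342 on the swimming and 10.2 on the Chlorella array. The swimming array stood far above both others, and the Chlorella signal was little over the lowest signal well above background. The log2 ratio was 4.51 ± 0.21 for swimming against nonswimming, the 2nd highest of 15661 genes, and -7.53 ± 0.28 for Chlorella against normal food in swimming, the 2nd lowest of 15503.

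Ngp encodes neutrophilic granule protein, a secondary granule protein related to the cathelicidins, and its probe lies at 110119702 to 110120250 on chromosome 9. Its signals were 143, 1812 and 8.04 in the same order of arrays. The log2 ratios were 3.62 ± 0.20 and -7.51 ± 0.30, ranks 39 from the top and 3 from the bottom. On the Chlorella array Ngp was thus near the limit of what is well above background.

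Ltf encodes lactoferrin, an iron-binding protein of secondary granules, and was measured by 2 probes on chromosome 9. The brighter probe, at 110738071 to 110738130, had signals of 205, 3715 and 17.1, and the other, at 110733462 to 110736512, 138, 2359 and 11.6. Both put the swimming array highest and the Chlorella array lowest. Their log2 ratios were 4.13 ± 0.20 and 4.05 ± 0.20 for swimming against nonswimming, and -7.45 ± 0.24 and -7.36 ± 0.26 for Chlorella against normal food. The probes therefore differed by less than their error in both comparisons.

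These genes are shown with the bases upstream of their start sites, because Camp, Ngp and Ltf had the largest falls of the 5 measured genes and Lcn2 was the one with another sign in Chlorella swimming against nonswimming. Secondary granule genes are known targets of C/EBP epsilon, a transcription factor of granulocyte maturation, so the 250 bases before each start site in the RefSeq promoter table (GRCm38.p6) were searched on both strands for the C/EBP-like letters TTGCNNAA, which on the other strand read TTNNGCAA. Capitals mark the matches. The lines give the gene's own strand, 5′ to 3′. The windows are chr9:109849457-109849706 on the minus strand for Camp, chr9:110419558-110419807 on the plus strand for Ngp, chr9:111019042-111019291 on the plus strand for Ltf and chr2:32387740-32387989 on the minus strand for Lcn2.
Camp: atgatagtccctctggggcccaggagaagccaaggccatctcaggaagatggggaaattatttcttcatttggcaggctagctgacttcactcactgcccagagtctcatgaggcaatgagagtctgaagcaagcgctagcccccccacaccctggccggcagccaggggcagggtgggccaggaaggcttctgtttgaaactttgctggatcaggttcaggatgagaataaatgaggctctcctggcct
Ngp: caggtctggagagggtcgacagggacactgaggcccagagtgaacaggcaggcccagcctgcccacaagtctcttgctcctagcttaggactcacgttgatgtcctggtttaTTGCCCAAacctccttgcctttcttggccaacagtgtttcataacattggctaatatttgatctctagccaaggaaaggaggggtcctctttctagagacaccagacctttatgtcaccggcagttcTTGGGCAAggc
Ltf: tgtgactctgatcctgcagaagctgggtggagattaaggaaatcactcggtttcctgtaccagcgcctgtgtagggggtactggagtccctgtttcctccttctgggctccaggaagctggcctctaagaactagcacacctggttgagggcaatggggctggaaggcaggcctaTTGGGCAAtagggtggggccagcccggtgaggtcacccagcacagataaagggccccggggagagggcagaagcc
Lcn2: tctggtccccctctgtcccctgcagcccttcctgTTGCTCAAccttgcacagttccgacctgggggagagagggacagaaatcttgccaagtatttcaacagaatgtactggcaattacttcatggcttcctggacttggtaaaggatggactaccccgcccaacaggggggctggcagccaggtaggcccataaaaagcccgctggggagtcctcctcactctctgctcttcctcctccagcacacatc

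Of the 6 genes found in the promoter table, 5 held the letters: Ngp and Fcnb at 2 places each, and Ltf, Lcn2 and Mmp8 at 1. The same letters occurred in 9.56% of all 32851 windows of that length. The window of Camp held none. The PU.1-like letters GAGGAAG, on the other strand CTTCCTC, were in 2 of the 6 windows (Lcn2 and Mmp8) and in 10.6% of all. The letters TATAA, on the other strand TTATA, were in 1 of the 6 (Fcnb) and in 22.8% of all. The C/EBP-like and PU.1-like matches did not overlap. The letters were chosen after these windows had been seen, and a match is a description, not a site. Of the C/EBP factors, Cebpe had no probe under that name. Cebpa had log2 ratios of 1.25 ± 0.20 (swimming against nonswimming) and -1.15 ± 0.20 (Chlorella against normal food). Cebpb and Cebpd had -0.28 ± 0.20 and -0.43 ± 0.20 in the first comparison, and 1.05 ± 0.20 and 1.58 ± 0.20 in the second.

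Between the probes of Camp and Ltf lie 27 other genes with a symbol, Ngp not counted, and 18 of them were well above background on each pair of arrays. In swimming against nonswimming their median log2 ratio was -0.09, with Pth1r, a hormone receptor of bone and kidney, at least 2-fold higher (1.43) and Prss50 and Rtp3 lower by a bound. In Chlorella against normal food the median was 0.11, with Ptpn23 higher (1.49) and Pth1r lower (-1.33).

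Lcn2 encodes lipocalin 2, which binds bacterial siderophores and so withholds iron. It is stored in secondary granules and is also made by epithelia, hepatocytes and adipocytes. Its probe lies at 32392828 to 32393072 on chromosome 2. Its signals were 15.6 on the nonswimming, 206 on the swimming and 23.0 on the Chlorella array. The swimming array again stood highest, but here the Chlorella array lay above the nonswimming one. The log2 ratios were 3.68 ± 0.26 for swimming against nonswimming and -2.85 ± 0.23 for Chlorella against normal food. Of the 5 genes measured on both arrays, Lcn2 was the only one with a positive ratio of Chlorella swimming to nonswimming (0.83 ± 0.28, or 178% of the nonswimming level), which did not reach 2-fold and ranked 498 from the top of 15331 genes. The next gene, Mmp9, lay 2.13 ± 0.36 lower in that comparison. Under the alternative settings this ratio of Lcn2 ranged from 0.34 to 0.83.

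Markers of other cells that can make Lcn2 had these values in Chlorella swimming against nonswimming. The 5 adipocyte genes had a median log2 ratio of 0.38, and Ucp1 of brown fat was 2-fold higher or more (1.56 ± 0.20). In swimming against nonswimming 3 of these 5, Adipoq, Plin1 and Ucp1, were higher by 2-fold or more (median 1.23, Ucp1 4.25 ± 0.20), and with Chlorella against normal food the same 3 were lower (median -1.19, Ucp1 -2.69 ± 0.20). Their summed level, in multiples of each array's 75th percentile, was 233, 441 and 309 on the nonswimming, swimming and Chlorella array. Of 3 hepatocyte genes, Alb and Apoa1 were measured, at -0.78 and -0.93, while Ttr was well above background on the nonswimming array alone, and the summed level was 9.49, 7.19 and 5.47. Of 4 keratinocyte genes, Krt5, Krt14 and Lor were lower by 2-fold or more and Krt15 by a bound, with a summed level of 3.55, 0.142 and 0.124. The part of these cells in the Lcn2 signal was not tested.

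Mmp8 encodes neutrophil collagenase, a metalloproteinase of secondary granules, with its probe at 7566361 to 7566420 on chromosome 9. Its signals were 18.0, 216 and 2.12, the last not well above background. It rose with a log2 ratio of 3.55 ± 0.24, and with Chlorella it was lower by at least 27.9-fold than in swimming and by at least 2.39-fold than in nonswimming mice on normal food. Mmp8 lies in a cluster of metalloproteinase genes. Of 13 other genes with a symbol whose probes lie within 0.5 Mb, 7 were measured on both arrays and none differed 2-fold in swimming against nonswimming (-0.47 to 0.09). In Chlorella against normal food 1 was lower, Mmp13, a collagenase of bone and cartilage (-1.43 ± 0.21).

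Mmp9 encodes gelatinase B, the defining enzyme of tertiary granules, and is also made by osteoclasts and macrophages. One of its 2 probes, at 164695774 to 164695833 on chromosome 2, was spotted 10 times on each array, which gives the spread between spots. On the nonswimming array these spots ran from 59.3 to 71.4 with a median of 64.1, on the swimming array from 199 to 222 with a median of 211, and on the Chlorella array from 18.4 to 24.2 with a median of 22.6 over 9 spots, 1 having been flagged as an outlier. The 3 sets of spots did not overlap. Their SD was 4.21, 8.14 and 1.84, or 6.54%, 3.88% and 8.42% of the mean. These are repeat spots on 1 array and not samples.

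**Figure D2:**
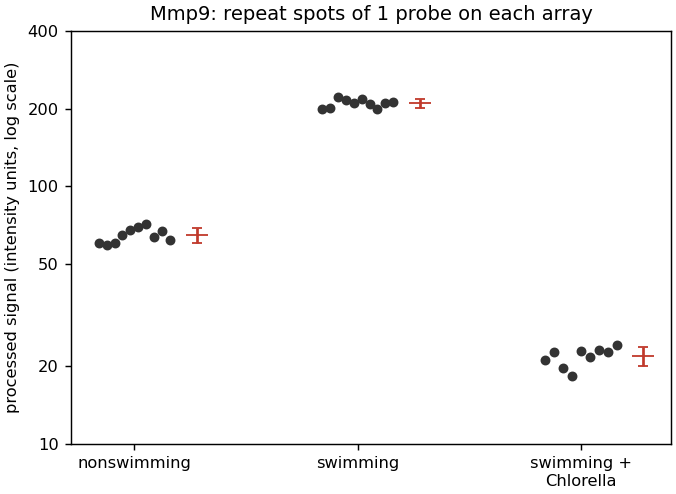
Processed signal (intensity units, log axis) of the repeat spots of 1 Mmp9 probe on each array, 10 on the nonswimming and swimming arrays and 9 on the Chlorella array, with their mean and SD in red. The spots lie between 59.3 and 71.4, between 199 and 222 and between 18.4 and 24.2, so the difference between arrays exceeds the spread between spots.

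Mmp9 had the smallest rise of the 7, with log2 ratios of 1.66 ± 0.21 for this probe and 1.53 ± 0.21 for the other, at 164695457 to 164695516. Its fall was -2.96 ± 0.23 and -3.09 ± 0.24. On the Chlorella array it stood at 40.7% of its nonswimming level (log2 ratio -1.30 ± 0.23), against 6.78% for Ngp, 10.1% for Ltf and 12.3% for Camp. With normexp background correction that ratio of Mmp9 was -0.41 and no longer 2-fold. The same ratios of Ngp, Ltf and Camp moved from -3.88, -3.31 and -3.02 to -1.63, -1.56 and -1.01 in that setting. The percentages of all 4 genes therefore depend on the background correction.

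Markers of osteoclasts and macrophages had these values. Acp5, an osteoclast phosphatase, passed 2-fold upward in swimming and downward with Chlorella, with signals of 445, 1297 and 236, while Ctsk, Calcr, Oscar and Ocstamp lay between -0.66 and 0.42 in both comparisons. The summed level of these 5 osteoclast genes was 3.86, 6.18 and 2.28 on the nonswimming, swimming and Chlorella array. None of 5 macrophage genes reached 2-fold in either comparison. Their medians were -0.07 and -0.63, and their summed level was 6.08, 5.66 and 3.73. In Chlorella swimming against nonswimming, Ctsk (-1.05) and Adgre1 (-1.13) alone passed 2-fold, both downward. The medians there were -0.45 for the osteoclast and -0.63 for the macrophage genes. The part of these cells in the Mmp9 signal was not tested.

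Fcnb encodes ficolin B, a lectin of the complement pathway made by myeloid cells, with its probe at 28084076 to 28085559 on chromosome 2. Its signals were 8.87, 129 and 1.28. It rose with a log2 ratio of 3.82 ± 0.30, with a nonswimming signal close to the lowest one well above background. On the Chlorella array it was not well above background and at least 16.6-fold lower than on the swimming array. Against the nonswimming array the bound was only 1.18-fold, so that comparison was not detectable at this signal. The other ficolin, Fcna, made by macrophages, had ratios of 0.62 ± 0.20 and -1.57 ± 0.21. The other 4 ficolin and collectin genes on the array did not reach 2-fold in the first and second comparison.

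**Figure D3:**
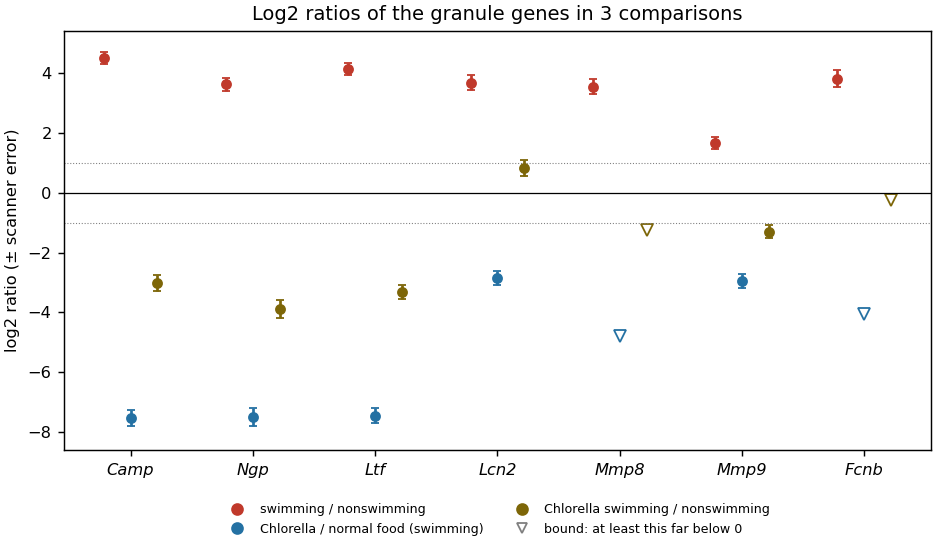
Log2 ratio of each gene's brightest probe in the 3 comparisons, with the scanner software's error as bars; open triangles are bounds for Mmp8 and Fcnb, which were not well above background on the Chlorella array, and dotted lines mark 2-fold. Camp, Ngp and Ltf lie near -7.5 in Chlorella against normal food, while Lcn2 (-2.85) and Mmp9 (-2.96) fell least, and Lcn2 alone is above 0 in Chlorella swimming against nonswimming.

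In swimming against nonswimming, Mmp9 was lowest and lay 1.89 ± 0.32 below Mmp8, the next gene. From Mmp8 through Ngp, Lcn2, Fcnb and Ltf to Camp, each neighbour differed from the next by 0.06 to 0.37, less than 2 times the combined scanner error. Across that run the ends did differ beyond it, with Camp 0.96 ± 0.32 above Mmp8, 0.89 ± 0.29 above Ngp and 0.83 ± 0.33 above Lcn2. In Chlorella against normal food, Camp, Ngp and Ltf were within 0.03 and 0.06 of their neighbours, and a gap of 4.49 ± 0.33 separated Ltf from Mmp9. Mmp9 and Lcn2 differed by 0.10 ± 0.32. Mmp8 and Fcnb, with bounds of -4.80 and -4.06, lay below Mmp9 and Lcn2. They could not be placed against Camp, Ngp and Ltf, since a bound leaves any larger fall possible.

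**Figure D4:**
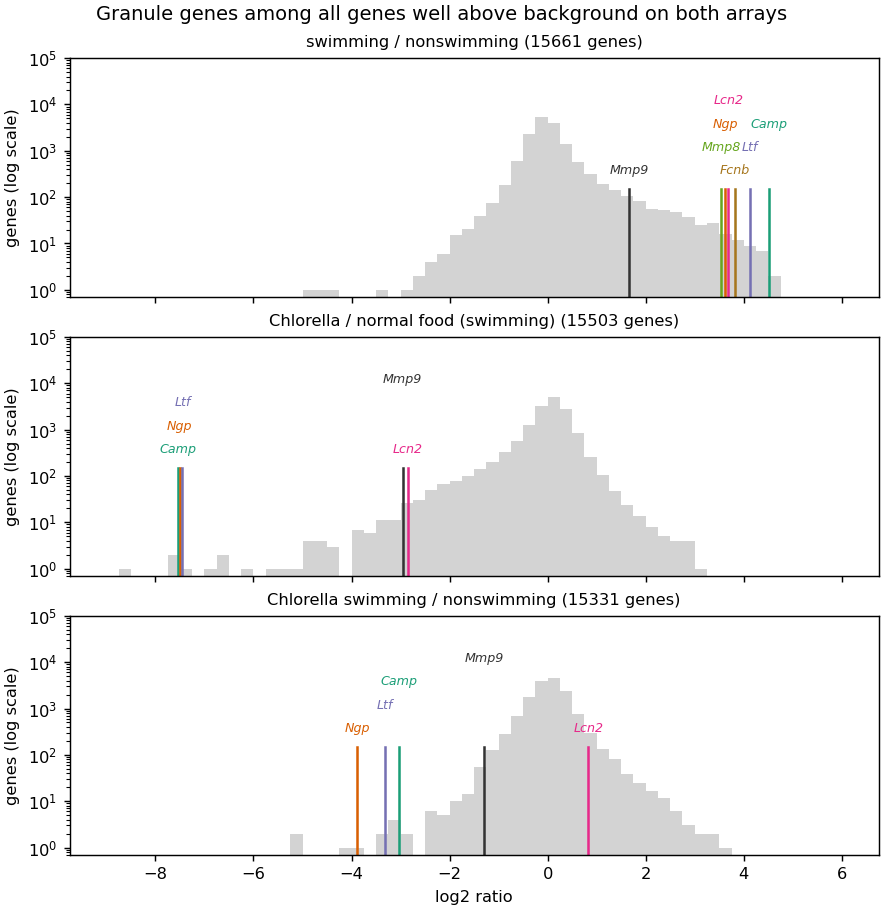
Log2 ratios of all genes well above background on both arrays (grey, counts on a log axis) in the 3 comparisons, with the granule genes measured there as coloured lines. In swimming against nonswimming 6 of the 7 lie above 1.69, the upper end of the central 95% of genes, and Mmp9 at 1.66 lies just inside it, and Camp, Ngp and Ltf are ranks 2, 3 and 4 from the bottom in Chlorella against normal food.

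Of 14 further genes of secondary and tertiary granules, 12 were measured on both normal food arrays, and 7 of them were higher by 2-fold or more in swimming, with none lower (median 1.02). With Chlorella 10 of 11 measured were lower by 2-fold or more than with normal food in swimming (median -1.62), and Cd177 was lower by a bound. The largest changes were those of Chil3, a chitinase-like protein (-5.65 ± 0.22), Slpi, a protease inhibitor (-4.66 ± 0.22), Cd177, a surface protein of neutrophils (at least -4.10), and Pglyrp1, a peptidoglycan-binding protein (-3.75 ± 0.24). In swimming against nonswimming these 4 had ratios of 3.86, 3.59, 3.59 and 3.16. Cyba and Lyz2, which many other cells also express, had ratios of 0.55 and 0.56. Stom did not reach 2-fold in either comparison (-0.03 and 0.10).

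All 6 primary granule genes were higher in swimming by 2-fold or more, Prtn3 and Prss57 by a bound (median of those measured 3.57), and all 6 were lower with Chlorella, 4 by a bound. Mpo, myeloperoxidase, and Ctsg, cathepsin G, had ratios of 3.71 ± 0.20 and 3.43 ± 0.20 in the first comparison, and their signals on the Chlorella array, 27.0 and 12.2, were below those on the nonswimming array, 258 and 132. Ms4a3 and Elane, neutrophil elastase, were not well above background on the Chlorella array.

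Of 11 genes of mature neutrophils with a probe, 9 were higher in swimming by 2-fold or more, 4 of them by a bound, and 9 were lower with Chlorella, 5 by a bound. S100a8 and S100a9, the calprotectin subunits, and Retnlg, a resistin-like protein, had ratios of 4.43, 4.08 and 4.03 in the first comparison. Csf3r, the receptor for the growth factor G-CSF, had 1.82 ± 0.24, and Clec4d, a lectin receptor, 1.85 ± 0.33. Trem1 was well above background on the swimming array alone, with a bound under 2-fold. Il1r2, the decoy receptor for interleukin-1, had -0.47 ± 0.21, and it was lower in Chlorella swimming than in nonswimming mice (-1.36 ± 0.22).

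Among transcription factors of myeloid cells, Gfi1, which acts in granulocyte precursors, had a ratio of 1.51 ± 0.25 in swimming against nonswimming. Gfi1 was lower by a bound on the Chlorella array (at least -2.57). Spi1, encoding PU.1, had 0.39 ± 0.31, on signals of 9.70, 13.1 and 3.88. Runx1 and Irf8 lay between -0.25 and 0.30 in both comparisons.

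Of 10 measured genes whose products bind or inhibit the granule proteins or act with them, 1, Lrp2, passed 2-fold in swimming against nonswimming and none in Chlorella against normal food. Timp1, Timp2, Timp3, Timp4 and Reck, inhibitors of metalloproteinases, had ratios of -0.77 to -0.05 in swimming against nonswimming and of -0.02 to 0.43 in Chlorella against normal food. Slc22a17, a receptor for lipocalin 2, had 0.34 ± 0.21 and -0.22 ± 0.21. Lrp2, megalin, which takes up lipocalin 2 and lactoferrin, had 2.23 ± 0.21 and -0.80 ± 0.21. Fpr2, a receptor of neutrophils that cathelicidin peptides bind, was well above background on the swimming array alone, at 123, with bounds of 4.06 and -3.98. Masp1 and Masp2, proteases that act with ficolins, lay between -0.72 and 0.31. Of 7 other metalloproteinase genes measured, none reached 2-fold in swimming against nonswimming.

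**Figure D5:**
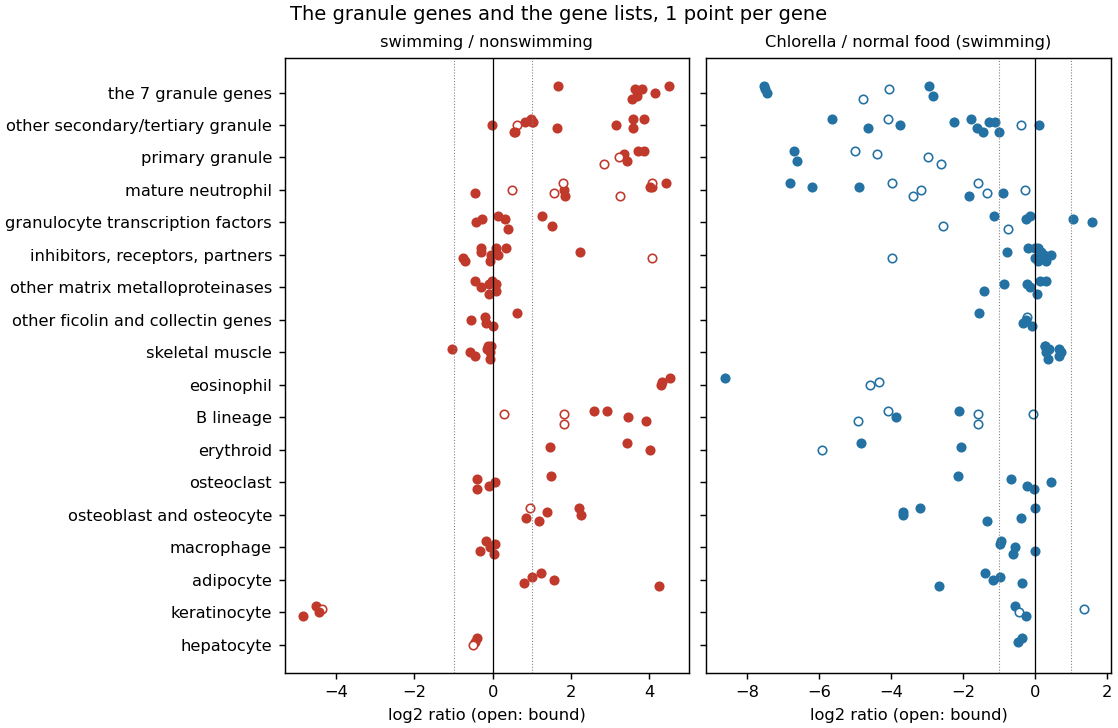
Log2 ratios of the 7 granule genes and of each gene list in swimming against nonswimming (left) and Chlorella against normal food in swimming (right), 1 point per gene; open points are bounds for genes well above background on 1 of the 2 arrays, and dotted lines mark 2-fold. The 7 granule genes lie to the right on the left panel and to the left on the right panel. So do the primary granule, eosinophil, B lineage, erythroid and adipocyte genes. The 8 skeletal muscle genes lie between -1.04 and 0.70, and Mb (-1.04) was lower by at least 2-fold in swimming against nonswimming.

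Most listed genes of eosinophils, the B lineage, erythroid cells, osteoblasts and osteocytes changed with the granule genes. Of the 5 osteoclast genes only Acp5 did. The 3 eosinophil genes, Prg2, Prg3 and Epx, were all higher by 2-fold or more in swimming and all lower with Chlorella, 2 by a bound. Their summed level was 0.792, 18.3 and 0.0542 times the 75th percentile on the nonswimming, swimming and Chlorella array. Of 7 B lineage genes, 6 were higher on the swimming array, 2 by a bound, and 6 lower on the Chlorella array, 4 by a bound, with a summed level of 0.452, 4.43 and 0.309. The erythroid genes Slc4a1, Alas2 and Hemgn were all higher in swimming and all lower with Chlorella, Hemgn by a bound, with a summed level of 3.18, 13.8 and 1.92. Of 6 genes of osteoblasts and osteocytes, 4 were higher on the swimming array and 4 lower on the Chlorella array, among them Bglap, osteocalcin (2.20 and -3.20), with a summed level of 4.31, 17.5 and 2.33. On the Chlorella array Cd79a, Ms4a1, Pax5, Vpreb1, Igll1, Prg3, Epx and Hemgn were not well above background. The part of these cells, or of tissue other than muscle in the samples, in the granule gene ratios was not tested.

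Genes near the median pattern of the granule genes were sought among 14402 other genes with a symbol. All of those were well above background on the swimming array. Likeness was the distance of a gene's log2 ratios in the first 2 comparisons from the medians of the 7 granule genes (3.68 and -4.80), so it rests on 3 arrays. The second median is itself a bound, and bounds were used as if they were measured. The measured falls lay from -7.53 to -7.45 (Camp, Ngp and Ltf) and at -2.96 and -2.85 (Mmp9 and Lcn2). None of them was near that median, so likeness to it is not likeness to a measured granule gene. The 8 nearest, at distances of 0.16 to 0.31, were Treml1, a platelet receptor, Slpi, Fcmr, a receptor for IgM, Nfe2, a transcription factor of erythroid cells and megakaryocytes, Slc4a1, the anion exchanger of red cells, Ms4a1, which encodes CD20 of B cells, Ms4a3 and Ctse, cathepsin E. Treml1 had signals of 26.2, 375 and 11.8 and Ctse of 60.6, 647 and 19.2. Fcmr, Nfe2, Ms4a1 and Ms4a3, 4 of the 8, were not well above background on the Chlorella array and were placed by a bound, so their true distance is not known. Slpi and Ms4a3 were on the granule gene lists above.

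Normexp background correction was run with an offset of 50, which is added to every spot. With it the log2 ratios of Camp, Ngp and Ltf in Chlorella against normal food were -4.96, -4.86 and -5.33. The rises of Lcn2, Mmp8 and Fcnb were 1.70, 1.75 and 1.55. All 7 rises and all 5 measured falls remained at least 2-fold in that setting. Of all genes there, 386 of 15661 were higher and 42 lower in swimming against nonswimming. In Chlorella against normal food 302 of 15503 were lower and 52 higher.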

How the data were processed

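Each pool of muscle RNA was labelled with Cy3 and put on 1 Agilent array, per the labels' protocols. The deposited scanner files give intensity values, and the submitters' processing notes name Agilent Feature Extraction 9.5. The signal used is the software's processed one, with its error. A second table deposited by the authors has 13683 rows on a log2 scale, with column medians of 0.008, -0.005 and 0.010. Its differences follow the direction of the scanner signal, with r of 0.77, 0.82 and 0.71 over probes, while its centring and what else was done to it stay unknown. It held Ngp, Lcn2 and Mmp9.

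Control and outlier spots were left out, spots of a probe averaged, signals scaled to the 75th percentile and genes represented by their brightest probe. Of 41169 probes, 22948 were named by accession, 6658 by symbol and 3109 by older symbol through RefSeq (GRCm38.p6, names only), and 8454 kept the file's name. Python 3.11.15 and, for alternatives, limma 3.58.1 were used, and steps were tested on simulated data. The members and 17 lists were chosen with earlier results of these data known. A gene of the erythroid list is not reported here and was left out of the list's values. Of each list up to 4 members with the largest Chlorella ratio were to be named, besides genes that bind or regulate a member's product and the 8 nearest patterns; other list genes were named after their values were seen. Alternatives covered scaling, background, dim probes, probe choice, the size rule and the authors' values.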

Additional observations from a re-analysis of the deposited data

How the results depend on the processing

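In every setting that gave a value, each granule gene kept the sign of its ratio in all 3 comparisons. The stricter filter on dim probes, a signal of at least 50 on both arrays, left 4 genes in swimming against nonswimming, all 4 past 2-fold. It left none in the comparisons with the Chlorella array. Of all 11925 genes left by that filter in swimming against nonswimming, 324 were higher and 53 lower. The authors' value table held 3 of the genes: 3 were past 2-fold in swimming against nonswimming, 3 in Chlorella against normal food (median -3.05) and 2 in Chlorella swimming against nonswimming (median -1.44). Of the 13566 genes in that table, 589 were higher and 167 lower in the first comparison. In the second 189 were higher and 626 lower, and in the third 233 and 223. With normexp background correction the medians were 1.75, -4.86 and -1.01; the cause was not tested. Without the filter on dim probes the median of Chlorella against normal food was -6.36 over 7 genes. For the 2 comparisons with the Chlorella array, the medians were -4.80 and -1.30 with genes at their bound, and the means over measured genes were -5.66 and -2.14. Counting bounds too, chosen after seeing the data, gave 7, 7 and 5 genes. Over all genes, centring arrays on the median shifted the middle of the ratios by -0.15 and 0.13 in the first 2 comparisons, and using dim probes too shifted it by -0.10 and 0.12. Signals near background limit the size of every ratio with the Chlorella array. No paired analysis was possible because each group has 1 array.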
